A study of Rattus norvegicus with 4 samples.

Results

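The miR-15/16 and miR-103/107 microRNAs (miRNAs) were followed in exosome RNA from the serum of male rats; exosomes are small vesicles shed by cells. The members were taken by name, as a seed family: rno-miR-16-5p, rno-miR-15b-5p, rno-miR-195-5p, rno-miR-497-5p, rno-miR-103-3p and rno-miR-107-3p (rno, rat, is left out below), 6 of the 719 rat miRNAs on the array, and all 6 were found. There were 4 groups, each with 1 array: naive rats that were not injected (day 0), rats with light disease (day 35), and rats with moderate or severe disease (both day 49). The protocol in the labels has a line of hepatocellular carcinoma (HCC) cells given to the rats by injection, but according to the design text of the series HCC exosomes were given as 1 dose to buffalo rats (spelled baffolo there), and neither names the line. The design text also mentions separate experiments on different rats at each time, but the labels do not say whether the RNA on an array was pooled. With 1 array per group there is no replicate error and no p-value: every difference below is one between 2 arrays, and the effects of day and disease cannot be told apart in any comparison with naive.

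Members of this superfamily carry the bases GCAGCA at the start of the mature strand, where a miRNA pairs with its target messenger RNAs. The miR-15/16 group (miR-15, miR-16, miR-195, miR-497) is known for restraining the cell cycle through cyclins and the survival factor Bcl2. The miR-103/107 pair is known for lowering Dicer, the enzyme that matures miRNAs, and for dampening insulin signalling in liver and fat through caveolin. miR-16 is abundant in blood cells, red cells included, and both miR-16 and miR-103 are often used as reference miRNAs in serum measurements.

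The mature strands are shown because the groups are defined by the seed, bases 2 to 8 from the 5′ end, and because near-identical strands limit what probes can tell apart. The seed is in capitals. Sequences are from RefSeq (GRCr8), which held all 6 members.
miR-16-5p: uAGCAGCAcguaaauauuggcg
miR-15b-5p: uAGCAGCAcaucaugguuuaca
miR-195-5p: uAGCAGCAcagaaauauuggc
miR-497-5p: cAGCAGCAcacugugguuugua
miR-103-3p: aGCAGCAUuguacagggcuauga
miR-107-3p: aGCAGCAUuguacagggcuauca

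The first 4 share the seed AGCAGCA and the other 2 share GCAGCAU, which is the same run moved by 1 base: GCAGCA starts at base 3 in the miR-15/16 group and at base 2 in miR-103-3p and miR-107-3p. Of the 641 array miRNAs whose names matched a RefSeq mature strand, 5 had the first seed, the 4 members and miR-322-5p, and 2 had the second. miR-103-3p and miR-107-3p are identical at 22 of 23 positions, and the only change, counted from 1 at the 5′ end with the base of miR-103-3p first, is G22C. miR-16-5p and miR-195-5p are identical at 19 of the 21 positions they share, with the changes G10A and U11G, the base of miR-16-5p first. miR-15b-5p and miR-497-5p are identical at 16 of 22 positions, and miR-16-5p and miR-15b-5p at 14 of 22. In the RefSeq gene table (GRCr8), the genes Mir15b and Mir16 neighbour each other inside Smc4, a gene for a condensin subunit. Mir195 and Mir497 neighbour each other. Mir107, Mir103a2 and Mir103a1 lie inside Pank1, Pank2 and Pank3, genes for pantothenate kinases. The array's own grid uses another build (rn4), so no coordinates are given.

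The signal of a miRNA was the background-subtracted brightness averaged over replicate spots of a probe and summed over its probes, in intensity units. Every member had 2 probes with 10 spots each. An error given with ± is the standard error over these spots and covers spot noise only. For comparison between arrays the signal was divided by a scale, the 75th percentile of that array's signals for the 111 miRNAs that all arrays detected (666, 356, 954 and 415 units in naive, light, moderate and severe serum), which gives the scaled signal. A member counted as measured where the scanner software detected it and its sum reached the floor, the dimmest probe signal for which a share of 0.5 or more of the spots stood clear of background, 13.07 to 16.01 units. A difference was called at 2-fold. The moderate array was the brightest, with a summed signal of detected miRNAs 1.58 times the naive one, while the light and severe arrays had 0.643 and 0.694 times the naive sum. Among cell markers, miR-451-5p (red cells), miR-223-3p (myeloid cells) and miR-122-5p (hepatocytes) were measured on all 4 arrays.

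miR-16-5p, the brightest of the 6 by probe signal, read 7065 ± 84.7, 4441 ± 56.8, 11091 ± 162 and 2699.7 ± 28.8 units in naive, light, moderate and severe serum. Scaled, it stood at 10.6, 12.5, 11.6 and 6.50. The severe array was the lowest, and on both probes its spots did not overlap those of any other array: on the brighter probe they ran from 1663 to 1892 units, against 4223 to 5111 on the naive array. Between light and moderate the scaled difference was 0.10 ± 0.03 on the log2 scale, and the spots of both probes overlapped.

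miR-15b-5p, whose gene neighbours that of miR-16, read 1443 ± 8.54, 1047 ± 10.4, 2971 ± 28.7 and 1141 ± 9.99 units in naive, light, moderate and severe serum, or 2.17, 2.94, 3.11 and 2.75 scaled. The naive array was the lowest after scaling and was separated from the other 3 on both probes. The light, moderate and severe arrays lay close together: moderate exceeded light by 0.08 ± 0.02 and light exceeded severe by 0.10 ± 0.02 on the log2 scale, with overlapping spots on both probes and on 1 probe.

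miR-497-5p, which is often studied in vessel wall and muscle, was dim. It read 57.5 ± 1.37, 47.5 ± 1.17, 174.7 ± 1.93 and 46.9 ± 1.43 units in naive, light, moderate and severe serum, or 0.0863, 0.133, 0.183 and 0.113 scaled. The moderate array was the highest. Its second probe had spots well above background on the moderate array alone (10 of 10, mean 32.0 units), and read 7.48, 6.82 and 5.83 units on the naive, light and severe arrays.

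miR-195-5p, from the gene beside that of miR-497, lay near the limit of detection. It read 18.6 ± 0.926 units on the naive array and 48.1 ± 1.46 on the moderate array, and was not detected on the light and severe arrays, where its sums were 4.27 and −0.95 units. Nearly all of the naive signal and 41.4 of the moderate units came from 1 probe, and the other had 0 spots well above background on each array. miR-16-5p, identical to miR-195-5p at 19 of the 21 shared positions, read 7065 and 11091 units on the naive and moderate arrays. Binding of the miR-195-5p probes to miR-16-5p was not tested, so the small miR-195-5p signal may not be its own. Scaled, miR-195-5p, miR-497-5p and miR-15b-5p were highest on the moderate array, which was also the brightest one.

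miR-103-3p read 167.0 ± 2.56, 87.4 ± 1.84, 215.6 ± 3.72 and 28.9 ± 1.45 units in naive, light, moderate and severe serum, or 0.251, 0.246, 0.226 and 0.0696 scaled. Naive and light differed by 0.03 ± 0.04 on the log2 scale, within spot noise. The severe array was the lowest by a wide margin: the spots of the brighter probe ran from 17.6 to 30.7 units there, against 108.7 to 131.5 on the naive array, 57.5 to 71.8 on the light array and 138.0 to 169.9 on the moderate array. On the second probe 0 of 10 spots were well above background on the severe array, with a mean of 5.37 units, against 45.2 units on the naive array.

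miR-107-3p, which differs from miR-103-3p by a single base, read 372.4 ± 4.68, 289.7 ± 4.97, 699.9 ± 6.67 and 290.8 ± 4.65 units in naive, light, moderate and severe serum, or 0.559, 0.814, 0.734 and 0.700 scaled. Here the naive array was the lowest after scaling, and the severe array lay just under the moderate array, by 0.07 ± 0.03 on the log2 scale with overlapping spots on 1 of the 2 probes. Unscaled, its brighter probe ran from 211.0 to 251.3 units on the severe array, against 258.0 to 307.9 on the naive array, so its place above naive comes with the scaling.

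**Figure D1:**
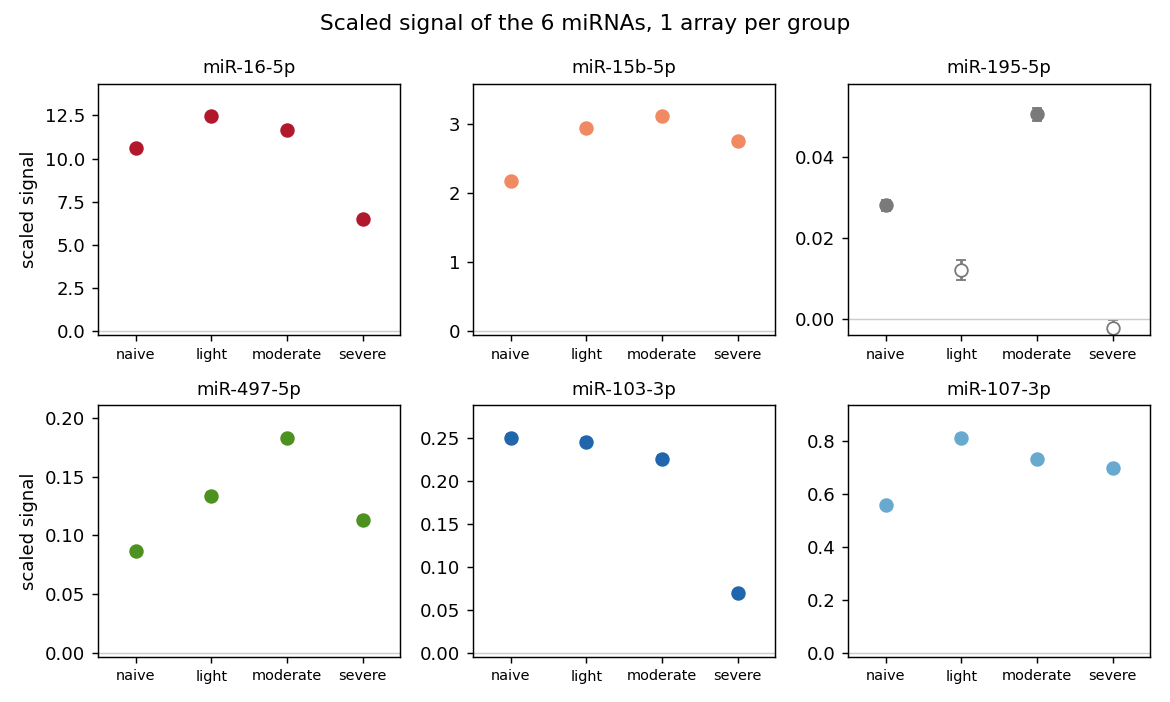
Scaled signal (signal over the array's 75th percentile, no unit) of each of the 6 miRNAs, with 1 point per array in the order naive, light, moderate, severe; bars are standard errors over spots, and open points mark arrays where the miRNA was not measured. miR-103-3p stands at 0.0696 on the severe array, against 0.251 on the naive array, while miR-107-3p stands at 0.700, against 0.559.

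Light disease at day 35 was set against naive. None of the 5 members measured on both arrays was at least 2-fold higher or lower. Of all 117 miRNAs measured on both, 1.71% passed 2-fold upward and 0.855% downward. miR-497-5p stood at 0.63 ± 0.05 on the log2 scale, miR-107-3p at 0.54 ± 0.03, miR-15b-5p at 0.44 ± 0.02 and miR-16-5p at 0.23 ± 0.03, with miR-103-3p at −0.03 ± 0.04. The members' median was 0.44, beside 0.27 over all 117 miRNAs. Without scaling between arrays the members' median was −0.46, so the direction of these 4 small differences depends on the scaling. miR-195-5p was measured on the naive array alone, and the light array's scaled floor lay above its naive level, so no fold can be given.

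Moderate disease at day 49 was set against naive. All 6 members were measured on both arrays and 1 was at least 2-fold higher, miR-497-5p, at 2.12-fold (log2 1.09 ± 0.04, place 8 from the top of 126 miRNAs). Of all 126 miRNAs, 6.35% passed 2-fold upward and 0.794% downward. miR-195-5p stood at 0.85 ± 0.08 on the log2 scale, or 1.80-fold higher, but at 0.64 on its brighter probe alone. miR-15b-5p stood at 0.52 ± 0.02. miR-107-3p, miR-16-5p and miR-103-3p stood at 0.39 ± 0.02, 0.13 ± 0.03 and −0.15 ± 0.03. The members' median was 0.46, beside 0.22 over all miRNAs. Scaling moves the small values: miR-103-3p stood at 0.37 without scaling and 0.53 with labelling spike-ins, and miR-16-5p at −0.01 with median scaling. miR-195-5p stood at −0.20 with normexp, a background correction that adds 50 units to every spot. The call for miR-497-5p depends on the processing. It was 0.99 on its brighter probe alone with the scale unchanged, 0.94 with median scaling, 0.83 with quantile normalization and 0.24 with normexp. Of 11 other processings with usable values, 7 kept it at least 2-fold higher, up to 1.77 with labelling spike-ins.

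The stromal and vessel-wall list stood high on the same array. Of its 4 miRNAs, 3 were measured on both arrays and all 3 were at least 2-fold higher on the moderate array. miR-214-3p, miR-143-3p and miR-199a-3p stood at 1.35, 1.31 and 1.28 on the log2 scale. Of all 126 miRNAs measured on both arrays, 6.35% passed 2-fold upward. miR-145-5p, a defining smooth muscle miRNA, was not detected on any array. The summed scaled signal of the list was 0.336, 0.400, 0.889 and 0.129 in naive, light, moderate and severe serum. The muscle list summed to 1.89, 1.16, 3.60 and 0.0516 in the same order. Of its 4 miRNAs, 2 were measured on both the moderate and the naive array, and 1 of them was at least 2-fold higher, miR-1-3p at 1.53. The other, miR-133b-3p, stood at 0.83 and made up most of the sum, with 1.67 on the naive and 2.97 on the moderate array. The part of these tissues in the signal of miR-497-5p and miR-195-5p was not tested. In bulk exosome RNA, a changed number of vesicles of a cell type and a changed amount of miRNA per vesicle cannot be told apart.

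**Figure D2:**
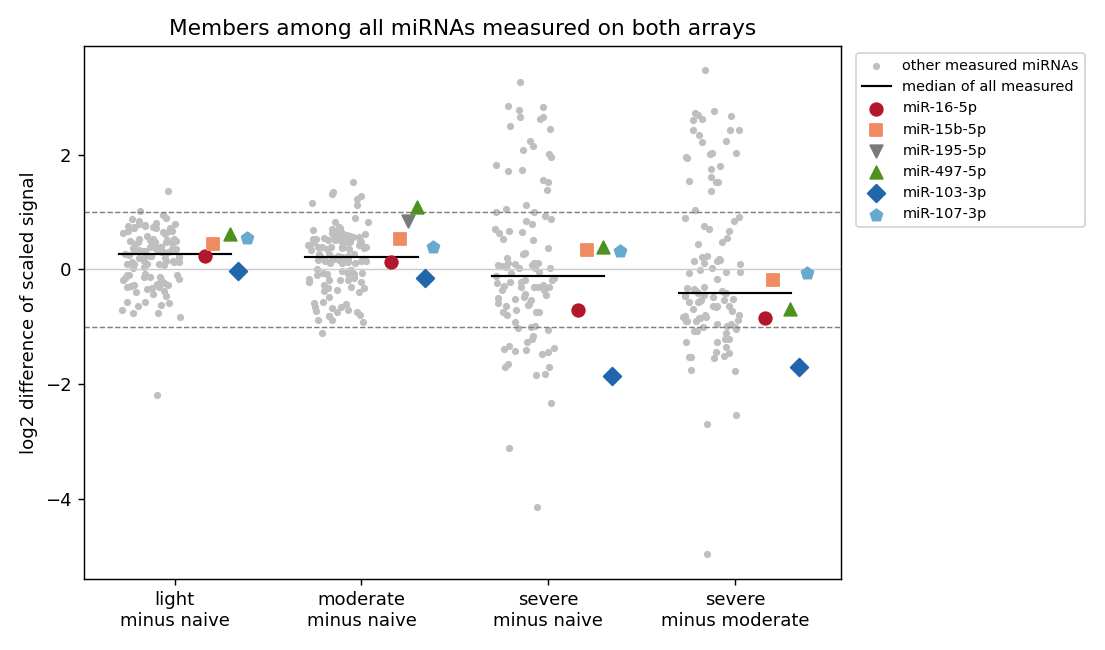
Log2 difference of scaled signal (vertical axis) in 4 comparisons (horizontal axis) for the members (coloured symbols) and all other miRNAs measured on both arrays (grey), with the median of all measured miRNAs as a black bar and 2-fold as dashed lines. miR-103-3p lies below the lower dashed line in both comparisons of the severe array, at −1.85 and −1.70, and miR-497-5p just above the upper line for moderate against naive, at 1.09.

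Severe disease at day 49 was set against naive. Of 5 members measured on both arrays, 1 was at least 2-fold lower and 0 were at least 2-fold higher. Of all 109 miRNAs, 19.3% passed 2-fold downward and 22.0% upward, so the members' count is close to the background. The member was miR-103-3p, at 3.60-fold lower (log2 −1.85 ± 0.08), which put it in place 4 from the bottom of 109. Its brighter probe alone, with the scale unchanged, gave −1.69. miR-16-5p followed at −0.71 ± 0.02, or 1.63-fold lower, in place 30 from the bottom. Under the 11 other processings miR-16-5p lay between −1.39 without scaling, where it passed 2-fold, and −0.15 with quantile normalization.

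The other 3 members stood together above naive: miR-497-5p at 0.39 ± 0.06, miR-15b-5p at 0.34 ± 0.02 and miR-107-3p at 0.32 ± 0.03 on the log2 scale. The median over all 109 miRNAs was −0.11, and relative to it these 3 stood at 0.50, 0.46 and 0.44, with miR-16-5p at −0.59 and miR-103-3p at −1.74. The relative value of miR-16-5p turned to 0.02 in 1 of the 11 other processings. Relative values do not move when each array is divided by a single factor, so processings that only change the scale could not turn it. Without scaling all 5 members were below naive, and their median was −0.36 in place of 0.32, beside −0.79 over all 109 miRNAs. With labelling spike-ins the members' median was 0.33, with miR-103-3p at −1.84 and miR-16-5p at −0.70. miR-103-3p was below naive under all 11 other processings that gave usable values, from −2.53 without scaling to −0.45 with normexp, where it was no longer 2-fold lower. miR-195-5p, measured on the naive array alone, gave no fold against the severe array's floor.

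**Figure D3:**
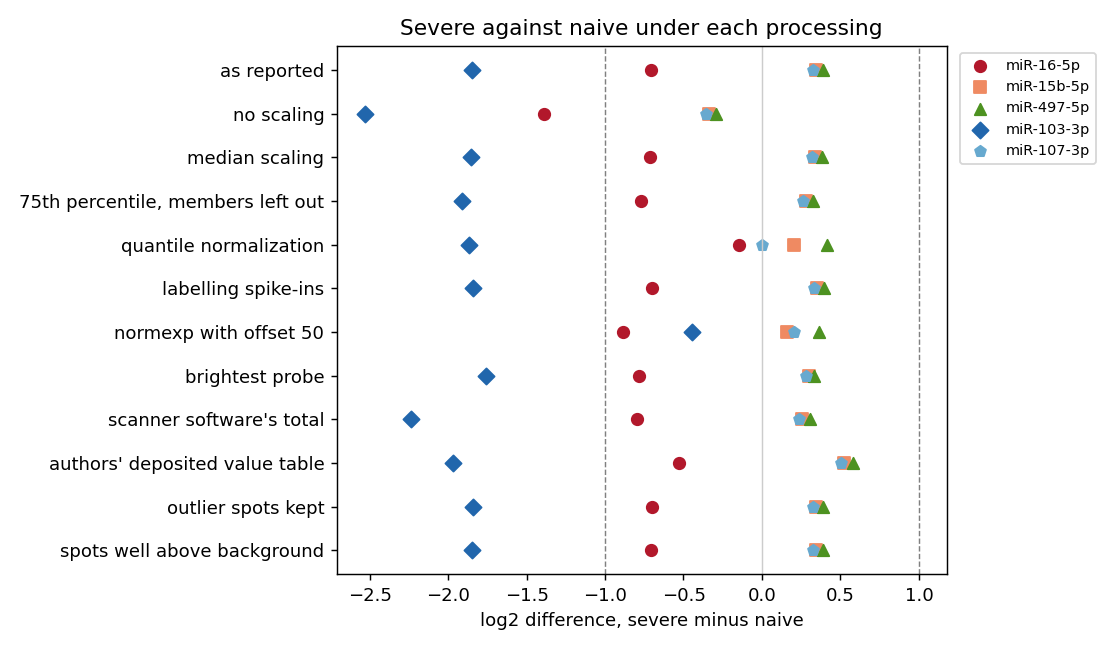
Log2 difference between the severe and the naive array (horizontal axis) for the 5 members measured on both, under the reported processing and 11 others (rows), with 2-fold as dashed lines. miR-103-3p lies left of 0 in every row, between −2.53 and −0.45, and miR-15b-5p, miR-497-5p and miR-107-3p lie below 0 without scaling.

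The 2 arrays of day 49 set severe against moderate disease at the same day. All 5 members measured on both arrays were lower on the severe array with the scaling used here, 1 of them at least 2-fold; under 11 other processings miR-107-3p turned positive in 3 (up to 0.24), miR-15b-5p in 2 (up to 0.20) and miR-497-5p in 1 (0.12). Of all 115 miRNAs, 71 were lower on the severe array and 44 higher, so most miRNAs shared the members' direction. At 2-fold, 20.0% of the 115 passed downward and 22.6% upward, and the median of all miRNAs was −0.41. miR-103-3p was 3.25-fold lower (log2 −1.70 ± 0.08), in place 6 from the bottom. miR-16-5p stood at −0.84 ± 0.03, or 1.79-fold lower, with a range of −2.04 to −0.15 under the other processings. Its value relative to all miRNAs turned positive in 1 of them (0.12), and those that only change the scale could not turn it. miR-497-5p stood at −0.70 ± 0.05. miR-15b-5p and miR-107-3p stood at −0.18 ± 0.02 and −0.07 ± 0.03, above the median of all miRNAs by 0.23 and 0.34. miR-195-5p was measured on the moderate array alone and was at least 1.31-fold lower on the severe array. The floor comes from 1 probe and the signal from a sum, so the bound is loose. Without scaling all 5 members were at least 2-fold lower, beside 67.8% of all 115 miRNAs. With labelling spike-ins 3 were, beside 53.9%.

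Ratios of members within an array do not depend on a scale factor. The ratio of miR-107-3p over miR-103-3p signals was 2.23, 3.31, 3.25 and 10.1 in naive, light, moderate and severe serum. Against naive, the ratio was 1.49-fold higher on the light array, 1.46-fold on the moderate array and 4.52-fold on the severe array (log2 2.17 ± 0.08). On the log2 scale the change was 0.57 on the light array, but 0.20 with normexp, and 0.54 on the moderate array, where the alternatives lay between 0.51 and 0.64. The strands differ by G22C alone. Binding of a probe to both strands was not tested, and the ratio of signals is no ratio of molecules. On the severe array the log2 change of the ratio was 2.04 from the brighter probes and 2.47 from the total that the scanner software gives, but 0.65 with normexp and its offset.

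miR-15b-5p and miR-16-5p, whose genes neighbour each other inside Smc4, also parted. The ratio of miR-15b-5p over miR-16-5p was 0.204, 0.236, 0.268 and 0.423 in naive, light, moderate and severe serum, so that the severe array's ratio was 2.07-fold higher than the naive one (log2 1.05 ± 0.03). On the severe array this change was between 0.94 and 1.08 with either probe alone, with the scanner software's total signal, with normexp and with outlier spots kept. By contrast, miR-107-3p and miR-15b-5p, which have different seeds, kept close: their log2 ratio stood at 0.10 ± 0.03, −0.13 ± 0.03 and −0.02 ± 0.03 from naive on the light, moderate and severe arrays. The quartiles over all 109 miRNAs in severe against naive were −0.74 and 0.79, so a gap like that between miR-15b-5p and miR-16-5p was not unusual. How often 2 miRNAs of the array part or keep close by as much was not computed. Of the members with the seed AGCAGCA, the 3 measured on both arrays stood between −0.71 and 0.39 in severe against naive, and the 2 with GCAGCAU at −1.85 and 0.32.

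**Figure D4:**
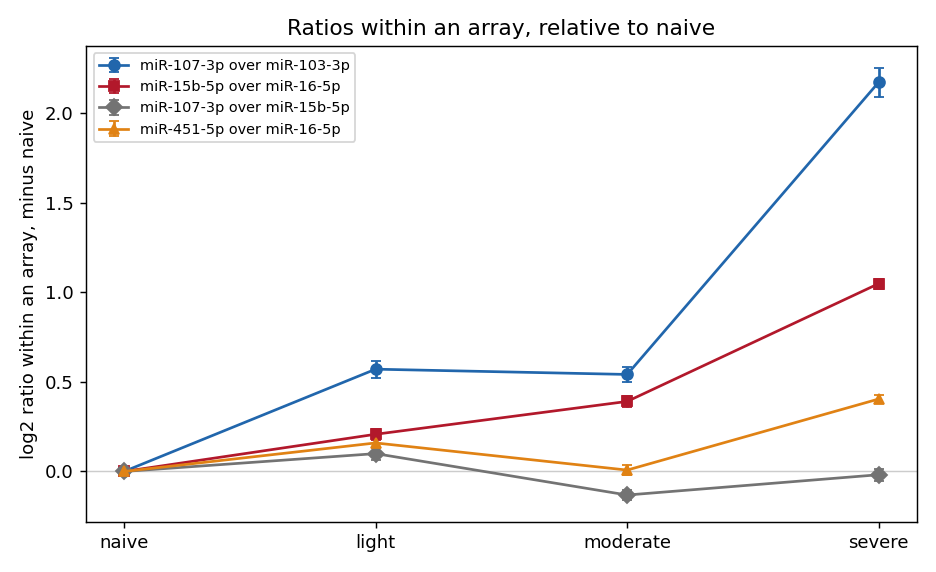
Change from the naive array in the log2 ratio of 2 miRNAs within an array (vertical axis) on the 4 arrays (horizontal axis), with standard errors over spots as bars. On the severe array miR-107-3p over miR-103-3p stands at 2.17, miR-15b-5p over miR-16-5p at 1.05, miR-451-5p over miR-16-5p at 0.40 and miR-107-3p over miR-15b-5p at −0.02.

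**Figure D5:**
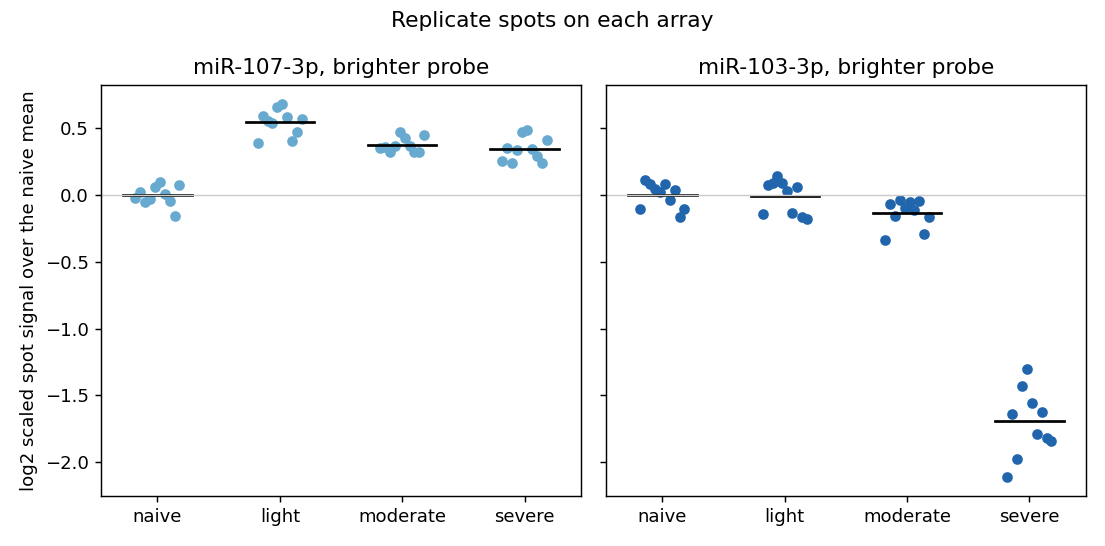
Log2 of the scaled signal of each replicate spot of the brighter probe over that probe's naive mean (vertical axis) on each array (horizontal axis) for miR-107-3p and miR-103-3p; black bars are the log2 of the mean over spots. The spots of miR-103-3p on the severe array, around −1.69, lie apart from those of the other 3 arrays, whereas those of miR-107-3p, around 0.35, lie among those of the moderate array.

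Since miR-16 is abundant in red cells, red-cell miRNAs are given beside it. Of the 4 on the list, 3 were on the array under those names, and miR-486 was not matched. miR-451-5p, made almost only in red cells, stood at 0.39, 0.14 and −0.30 on the log2 scale against naive on the light, moderate and severe arrays, where miR-16-5p stood at 0.23, 0.13 and −0.71. miR-144-3p, from the same precursor cluster as miR-451, stood at 1.38, −0.19 and 1.82, and for miR-144-5p the severe array exceeded naive by at least 3.91-fold. The list's summed scaled signal was 42.0, 55.4, 46.2 and 34.8 in naive, light, moderate and severe serum. The ratio of miR-451-5p over miR-23a-3p, which is used in human serum as a sign of red-cell lysis, was 7.50, 7.61, 5.67 and 5.84 in that order. miR-16-5p over miR-23a-3p was 1.91, 1.73, 1.43 and 1.12, so on the severe array its change from naive (log2 −0.77 ± 0.03) was larger than that of miR-451-5p over miR-23a-3p (−0.36 ± 0.02). The part of red-cell content in miR-16-5p was not tested.

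Markers of other cells are given beside the low severe values of miR-103-3p and miR-16-5p. All 5 leukocyte markers were measured on both the severe and the naive array, 2 were at least 2-fold lower and 0 higher, beside 19.3% and 22.0% of all 109 miRNAs. miR-150-5p stood at −3.11 on the log2 scale, miR-342-3p at −1.33, miR-223-3p at −0.91 and miR-142-5p at −0.64, whereas miR-142-3p stood at 0.03 against naive and at 0.91 against moderate. The list's summed scaled signal was 12.2, 17.0, 17.1 and 6.53 in naive, light, moderate and severe serum, and all 5 were detected on every array. miR-223-3p made up most of that sum, with 5.21 on the severe array and 9.81 on the naive array. Of the other lists, the endothelial and platelet miR-126a-3p stood at −0.98 in severe against naive, the hepatocyte miR-122-5p at −0.75 and the muscle miR-133b-3p at −4.14, the lowest of the 109. Of their partners, miR-126a-5p, miR-133a-3p and miR-206-3p were measured on neither the severe nor the naive array. miR-122-3p and the muscle miR-1-3p were measured on the naive array alone of these 2. miR-1-3p was at least 5.08-fold lower on the severe array, and the bound for miR-122-3p was close to no difference. Among stromal miRNAs, miR-143-3p stood at −1.38 in severe against naive and miR-214-3p at −0.11, and miR-199a-3p was at least 2.16-fold lower. The labelling spike-ins read 0.620 times their naive signal on the severe array, as a geometric mean. The spike-in dmr_285 read 4556 units on the naive and 3592 on the severe array, and dmr_31a 1691 and 825, so they did not fall by the same share. The part of these cells, or of labelling, in the low miR-103-3p and miR-16-5p was not tested.

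The miRNAs whose pattern was most like that of 2 members were found by the root mean square distance between their log2 differences from naive on the light, moderate and severe arrays, among the 104 miRNAs measured on all 4 arrays. With only 4 arrays and a shared naive array this is a description. Closest to miR-16-5p were miR-30e-5p (distance 0.080), let-7i-5p (0.093), miR-17-5p (0.10), miR-93-5p (0.14) and miR-20b-5p (0.20), of which the last 3 share the miR-17 seed. On the severe array these 5 stood between −0.79 and −0.50. Closest to miR-103-3p were miR-652-3p (0.095), miR-328a-3p (0.14), miR-26a-5p (0.27), miR-425-5p (0.28) and let-7d-5p (0.35), which stood between −1.85 and −1.41 on the severe array. miR-107-3p lay at a distance of 1.34 from miR-103-3p, which put it in place 64 from the closest. miR-15b-5p lay at 0.66 from miR-16-5p, in place 55.

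The list of related seed miRNAs held miR-322-5p, the rodent form of miR-424, and miR-503-5p, while miR-15a-5p and miR-424-5p were not matched on the array. miR-322-5p was measured on the moderate array alone, at 23.7 ± 1.17 units, and was at least 1.06-fold higher there than on the naive array, a bound close to no difference. It read 10.8, 7.39 and 7.49 units on the naive, light and severe arrays. miR-503-5p was detected on 0 of 4 arrays. Of the 9 opposite arms of these precursors, 0 were measured on any array, and 2, miR-15b-3p and miR-322-3p, were detected on the moderate array at 10.1 and 8.77 units, below its floor of 13.1. The strands named as members were therefore the measured arms of their precursors.

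The members together gave 6.56%, 6.61%, 6.91% and 4.35% of the summed signal of detected miRNAs in naive, light, moderate and severe serum. miR-16-5p alone gave 5.08%, 4.96%, 5.04% and 2.79%, and the other members 1.48%, 1.65%, 1.87% and 1.56%. The lower total of the severe array thus lay in miR-16-5p, and the slightly higher totals of the light and moderate arrays lay in the other members. miR-103-3p gave 0.120%, 0.0978%, 0.0980% and 0.0299%, and miR-107-3p 0.268%, 0.324%, 0.318% and 0.301%. Probes differ in brightness per molecule, so a share is read only between arrays.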

How the data were processed

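Per the file headers, the deposited intensity values per spot were made by the authors with Agilent Feature Extraction 10.7.3.1 (array design 046066), background-subtracted and spatially detrended, without scaling between arrays; the submitters' processing notes name version 9.1. The labels describe labelling of amplified cRNA from total RNA. All 4 arrays carry 1 scan time in the file headers. The deposited flags of 0 or 1 mark outlier spots and detection. The deposited value table holds the scanner software's total intensity for 102 miRNAs on a linear scale, for 102 of 102 within 0.006 units, and 5 of the 6 members; its medians were 189, 107, 304 and 114.

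Outlier spots were left out (386, 387, 386 and 525 of 14380), and 0 were saturated. Analysis used Python 3.11.15, pandas 2.3.3 and, for normexp, limma 3.58.1 on median spot signals. The averaging and fold arithmetic were checked on simulated spots with known folds. Every miRNA was taken as detected there and the scale came from miRNAs known to be unchanged. The choice of scale, the floor and background were thus not tested. The members, lists and rules were chosen with earlier results of these data known. The text names all 6 members, miRNAs of the marker, related seed and opposite-arm lists where a result is set beside them, and the 5 patterns closest to miR-16-5p and to miR-103-3p.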

Additional observations from a re-analysis of the deposited data

How the results depend on the processing

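Differences were recomputed under 12 other processings, of which the deposited value table lacks miR-195-5p. No member passed 2-fold between the light and naive arrays under any that gave a value. Of all 117 miRNAs, 27.4% were at least 2-fold lower there without scaling and 28.2% with spike-ins. Members' medians for light, moderate and severe against naive and for severe against moderate were 0.44, 0.46, 0.32 and −0.70 as reported. Without scaling they were −0.46, 0.98, −0.36 and −1.90. Then 3 members were at least 2-fold higher in moderate against naive, beside 28.6% of all miRNAs. In the comparisons of severe with naive and with moderate 2 and 5 members were lower, beside 38.5% and 67.8%. With spike-ins the medians were −0.47, 1.14, 0.33 and −1.37. Then 4 members were higher in moderate against naive, beside 45.2% of all miRNAs, and 3 lower in severe against moderate, beside 53.9%. With median scaling they were 0.11 and 0.32 for light and moderate, and with quantile normalization 0.00, 0.16, 0.00 and −0.33. With normexp they were 0.27, 0.22 and, for severe against moderate, −0.21. In severe against naive 0 members were then lower, beside 4.59% of all miRNAs. With the brightest probe they were 0.085 and 0.36, with the scanner software's total 0.33 and 0.35, and with the authors' deposited values 0.21 and 0.26, for light and moderate against naive. The count of 1 higher member in moderate against naive was 0 with median scaling, quantile normalization, normexp and the brightest probe. The shares of all miRNAs were 4.76%, 3.97%, 0% and 3.17% in that order. The 75th percentile over all 719 miRNAs lay at background, 0.77, −0.74, 8.26 and 0.34 units, below the floor on each array, and gave no value for light. For the others it gave medians of −2.45, 0.83 and 2.72. In moderate against naive it gave 0 higher and 6 lower members, beside 0% and 100% of all miRNAs. In severe against moderate it gave 5 higher and 0 lower, beside 97.4% and 0.87%. It turned round miR-497-5p in moderate against naive (−1.83) and miR-103-3p in severe against moderate (1.72). The members' shares of signal were 6.18%, 6.13%, 6.43% and 4.19% with normexp in naive, light, moderate and severe serum, 6.63%, 6.50%, 7.01% and 4.32% with the brightest probe, and on the severe array 4.39% with the scanner software's total. Normexp adds 50 units to each spot, which lowers folds of dim miRNAs by construction; other causes were not tested. Ratios of members were examined under alternatives chosen after seeing the data. No paired analysis was possible because each group has 1 array, and no array could be left out. Signal near the floor limits miR-195-5p, miR-497-5p and, on the severe array, miR-103-3p.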
